A study of Mus musculus with 2 samples.

Results

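The genes of the ligands and receptors of the epidermal growth factor (EGF) receptor family were examined for regions recovered with Etv4 and with Etv5. The family members comprised 10 mouse genes, of which 7 encode ligands (Hbegf, Areg, Ereg, Tgfa, Btc, Epgn and Nrg1) and 3 encode receptors (Egfr, Erbb2 and Erbb3). They were taken by name out of 21938 protein-coding genes of the GENCODE annotation, in a list drawn up with earlier results of these data known. Every region of either list that lay inside one of these genes or within 50 kb of it was counted. This gave 34 of the 13636 Etv4 regions and 21 of the 8297 Etv5 regions.

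The regions came from 2 ChIP-seq libraries of EpRas cells, a derivative of the mouse mammary gland epithelial line EpH4 transformed with H-Ras. ChIP-seq sequences the DNA fragments that an antibody pulls down with the protein crosslinked to them. Both libraries were made from cells grown in 4% serum and given 1 ng/ml TGF-β3 for 1.5 h. Of the recorded conditions only the antibody differed, a rabbit polyclonal for Etv4 and a mouse monoclonal for Etv5. Each antibody had 1 library, so no value below could be set against a spread between replicates and no test between the antibodies was made. The cells of both libraries carry the transforming Ras and had TGF-β3. The parental EpH4 cells, cells without TGF-β3 and control libraries were not analysed here. The lists hold no read counts, so the depth is unknown, and RNA levels of these genes were not analysed here.

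Ligands of the EGF family are made as membrane-anchored precursors that are released by cleavage at the cell surface, mainly by ADAM metalloproteases. They bind receptor tyrosine kinases of the Erbb family, which pair up and signal through adaptors to Ras and the MAP kinases. Amphiregulin, the product of Areg, is required for the outgrowth of mammary ducts, and Erbb2 is a well-known oncogene of the breast. Etv4 and Etv5 are ETS transcription factors of the PEA3 group, which recognise a GGAA core and whose own genes are commonly induced by Ras and MAP kinase signaling.

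Regions of both lists were found at 9 of the 10 genes, with Btc as the exception. In the Etv4 list, 6 of 7 ligand genes and 3 of 3 receptor genes had at least 1 region, against 53.4% of all protein-coding genes under the same rule. In the Etv5 list, 6 of 7 ligand genes and 3 of 3 receptor genes had one as well, against 42.7% of all protein-coding genes. All 9 genes had regions of the lists with at least 1 bp in common, against 29.5% of protein-coding genes. Where 50% of both regions had to overlap, Areg, Ereg and Epgn no longer had such a pair. Because the list was drawn up with such results known, these shares stand side by side as a description. The 9 genes are also not independent of each other, since Areg, Ereg and Epgn lie side by side on chromosome 5 and have regions in common. When such neighbours were joined, 7 of 8 loci had regions. Long genes also offer more room. Among protein-coding genes over 200 kb, 62.4% had an Etv4 region and 54.2% an Etv5 region, and among those of at most 10 kb, 45.7% and 36.9% did.

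Ereg had the most Etv4 regions of the family, with 8, and shared the highest Etv5 count of 5 with Erbb2. Every region counted for Ereg was also counted for Areg or Epgn, and 1 of each list lay inside Ereg. Hbegf had 7 Etv4 and 3 Etv5 regions, Egfr had 6 and 2, Areg had 5 and 3, and Tgfa had 5 and 2. Epgn had 3 of each, Nrg1 had 3 and 2, Erbb3 had 3 and 1, and Erbb2 had 2 and 5. Among all protein-coding genes the median was 1 Etv4 region and 0 Etv5 regions, and the 90th percentile was 4 and 2. Only 2.63% of protein-coding genes had at least as many Etv4 regions as Ereg, and 4.08% had at least as many as Hbegf. At the other end of the members with regions, 32.2% of genes had as many Etv4 regions as Erbb2 or more, 20.7% had as many as Epgn, Nrg1 or Erbb3 or more, and 42.7% had as many Etv5 regions as Erbb3 or more. Erbb2 was the only member with more Etv5 than Etv4 regions, in lists of which the Etv4 list is the longer.

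**Figure D1:**
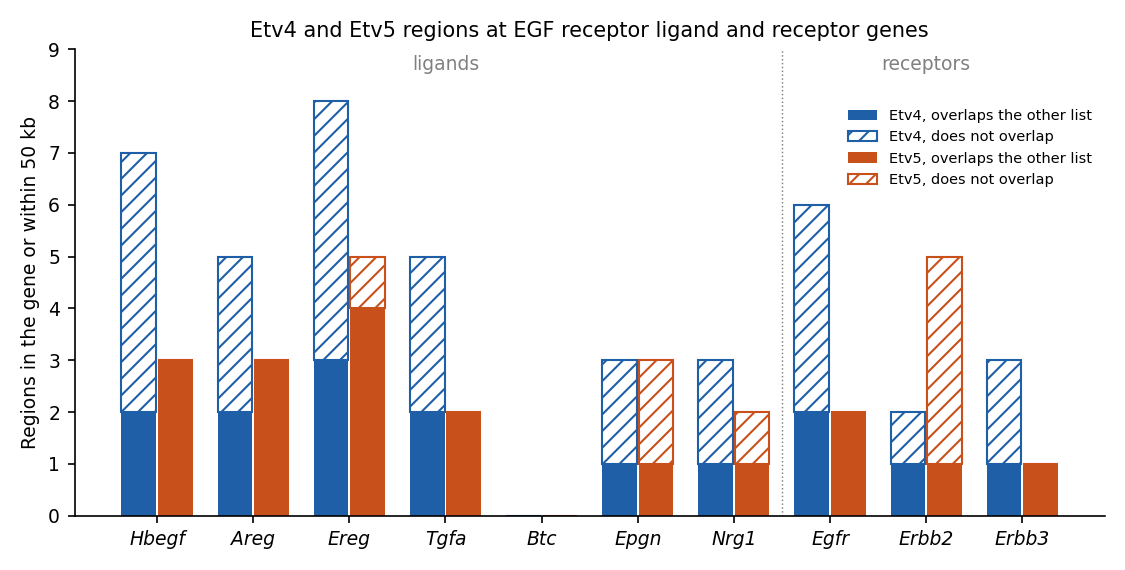
Number of Etv4 (blue) and Etv5 (orange) regions in each gene or within 50 kb of it. Filled parts of the bars are regions that overlap a region of the other list and hatched parts are regions that do not. Btc has none, Ereg has 8 Etv4 regions, and Erbb2 is the only gene with more Etv5 than Etv4 regions.

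**Figure D2:**
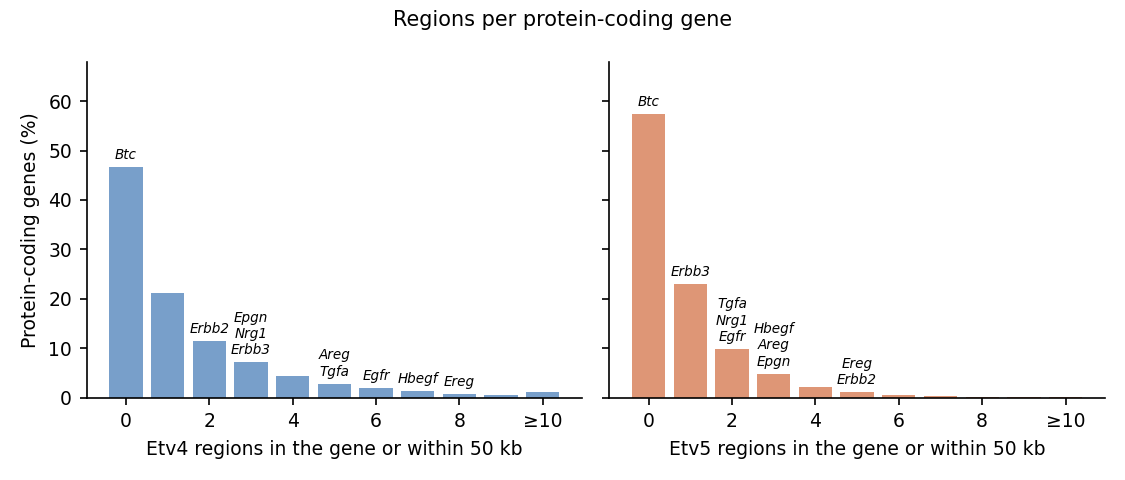
Share of the 21938 protein-coding genes (vertical axis, percent) with each number of Etv4 or Etv5 regions in the gene or within 50 kb (horizontal axis, 10 or more pooled). The names of the members stand above the bar of their own count. For Etv4, 6 members have 3 to 6 regions, and Hbegf and Ereg have 7 and 8.

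Of the 34 Etv4 regions, 12 overlapped an Etv5 region, or 35.3% (exact 95% interval 19.7–53.5%), and in the whole Etv4 list 37.8% did. Of the 21 Etv5 regions, 14 overlapped an Etv4 region, or 66.7% (43.0–85.4%), against 63.2% of the whole Etv5 list. These intervals cover counting error only. Both intervals contain the share of the list, so no difference was detectable with this number of regions. The 12 and 14 regions formed 14 overlapping pairs, because 1 Etv4 region at Hbegf and 1 between Ereg and Areg each touched 2 Etv5 regions. The Etv4 regions measured 303 to 1122 bp (median 598 bp) and the Etv5 regions 311 to 789 bp (median 507 bp), close to the medians of the lists, 589 and 532 bp.

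The rule takes in 50 kb on either side of each gene. Most members are shorter than that and have more room outside than inside. The reverse holds for Egfr and Nrg1, which are 166 and 1069 kb long. Inside a member gene were 10 of the 34 Etv4 regions and 5 of the 21 Etv5 regions. By their midpoints, 7 Etv4 regions fell in exons, 9 in introns and 18 between genes, and 2, 7 and 12 of the Etv5 regions did so. In the lists without the mitochondrial regions, 17.7%, 42.0% and 40.3% of Etv4 and 13.2%, 43.3% and 43.5% of Etv5 regions did. The midpoint of 13 Etv4 regions (38.2%, 22.2–56.4%) and of 8 Etv5 regions (38.1%, 18.1–61.6%) was within 2 kb of an annotated transcript start, against 36.5% and 33.1% of the lists. Of these 21 regions, only 5 were at the start of a family member, namely 2 Etv4 regions at Hbegf, 1 region of each list at Areg and 1 Etv5 region at Erbb2. The other 16 were at the start of a neighbouring gene only.

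**Figure D3:**
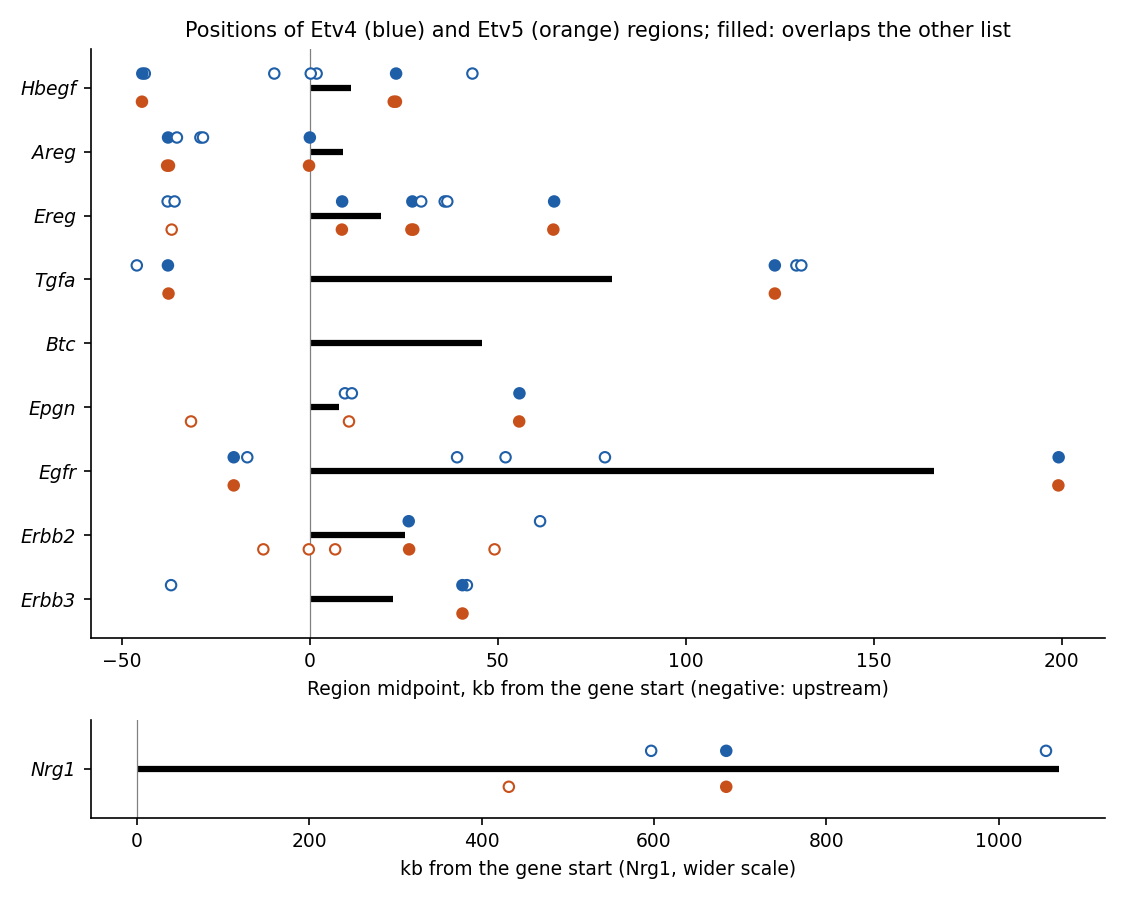
Midpoint of each region in kb from the start of the gene (horizontal axis, negative values upstream), with Etv4 in blue above and Etv5 in orange below each gene body (black bar). Filled points overlap the other list. Nrg1 is drawn on a wider scale, and a region near several genes appears at each. Only Hbegf, Areg and Erbb2 have a point at or next to the gene start.

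Areg (ENSMUSG00000029378.5, chr5:91139599-91148432, plus strand) encodes amphiregulin and was the only member whose start was covered by both lists. Across protein-coding genes the start is covered by an Etv4 region in 9.91%, by an Etv5 region in 4.35% and by both in 2.12%. Among the members an Etv4 region covered the start of 2 genes, Hbegf and Areg, and an Etv5 region that of 1, Areg. The Etv4 region, chr5:91139434-91139867, had its midpoint 0.051 kb downstream of the start and reached into exon 1 of 6. The Etv5 region, chr5:91139251-91139627, had its midpoint 0.161 kb upstream of it. They had 194 bp in common, which is 44.7% of the Etv4 region and 51.5% of the Etv5 region. Their numbers in the lists were 9383 of 13636 and 3212 of 8297. A region number runs from 1 to the size of its list, its criterion is not stated, and it serves here only as a place in the list. The Etv4 region was thus at 68.8% of its list and the Etv5 region at 38.7%.

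The part of the common stretch upstream of exon 1 is shown, as the pair with the lower Etv4 number among those counted for Areg. It runs on the plus strand of mm10 over chr5:91139434-91139598. The capitals mark the ETS core with 2 more bases (GGAAGT, read here on the minus strand) and a full cyclic AMP response element (TGACGTCA), the site of Creb and Atf proteins.

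Areg start: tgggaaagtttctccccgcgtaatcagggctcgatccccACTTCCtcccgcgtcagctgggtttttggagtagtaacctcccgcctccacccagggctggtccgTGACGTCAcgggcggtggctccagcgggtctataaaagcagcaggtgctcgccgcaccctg

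The ETS core is at chr5:91139473-91139478 and the cyclic AMP response element at chr5:91139538-91139545, both inside the Etv4 and the Etv5 region. The full ETS pattern, the AP-1 pattern and the RUNX pattern described further on were not found in either region. The cyclic AMP response element occurred within 500 bp around the midpoint in 1.55% of all Etv4 and 1.19% of all Etv5 regions. In the same window it was in 2 of 34 Etv4 and 2 of 21 Etv5 regions at the family genes, all at Areg and Tgfa, and outside the window it was also in an Etv4 region counted for Erbb3, at chr10:128547495-128547502. GGAAGT was in 14 of the 34 Etv4 regions (41.2%, 24.6–59.3%) and 12 of the 21 Etv5 regions (57.1%, 34.0–78.2%), against 35.0% and 32.5% of the lists. Both words were added to the search after these sequences had been seen, so their shares are descriptions only.

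Areg had 4 further Etv4 and 2 further Etv5 regions, all upstream, between 28.4 and 37.9 kb from its start. They lie between Ereg and Areg and are equally counted for Ereg. In one cluster an Etv4 region, chr5:91101753-91102124, overlapped an Etv5 region on either side, chr5:91101403-91101977 by 225 bp and chr5:91102032-91102343 by 93 bp. These regions had high numbers, with 76.7% of the list for Etv4 and 57.6% and 96.2% for Etv5. An AP-1 site at chr5:91101802-91101808 was in the stretch common to the first pair. Further Etv4 regions lay 35.3, 29.1 and 28.4 kb upstream of Areg without an Etv5 region. The last of these, chr5:91110931-91111536, held the only full ETS pattern of the Epgn, Ereg and Areg locus, CAGGAAGT on the minus strand at chr5:91111120-91111127.

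Ereg (ENSMUSG00000029377.5, chr5:91074622-91093646, plus strand) encodes epiregulin. Its 1 pair inside the gene was in intron 1 of 4, and no region covered its start. The Etv4 region, chr5:91082836-91083699, was 864 bp long and had number 662, or 4.86% of its list, the lowest Etv4 number among the ligand genes. The Etv5 region, chr5:91083040-91083357, lay wholly inside it but had number 7246, or 87.3% of its list. The midpoint of the Etv5 region was 8.58 kb downstream of the gene start. The 200 bases around the middle of the common stretch, chr5:91083099-91083298 on the plus strand, are shown because this pair had the lowest Etv4 number of any overlapping pair, with an AP-1 site (TGACTCA) in capitals.

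Ereg intron 1: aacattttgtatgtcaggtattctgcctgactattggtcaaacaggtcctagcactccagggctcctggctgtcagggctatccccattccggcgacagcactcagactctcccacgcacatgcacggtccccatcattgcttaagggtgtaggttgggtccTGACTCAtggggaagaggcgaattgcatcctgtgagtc

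A further AP-1 site, TGAGTCA at chr5:91083293-91083299, runs 1 base past the end of this stretch and is therefore not capitalised. The capitalised site is at chr5:91083261-91083267. Both sites were inside the Etv4 and the Etv5 region. Neither region held an ETS pattern or the shorter GGAAGT. Of the remaining regions near Ereg, those downstream are the regions between Ereg and Areg and those at the Areg start, and 2 Etv4 regions and 1 Etv5 region upstream are shared with Epgn.

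Epgn (ENSMUSG00000035020.11, chr5:91027464-91035215, plus strand) encodes epigen and had no region inside it or at its start. Its nearest Etv4 region was 1.33 kb beyond its 3′ end and its nearest Etv5 region 2.55 kb beyond it. In this stretch 2 Etv4 regions, chr5:91036544-91037155 and chr5:91038394-91038991, flanked 1 Etv5 region, chr5:91037767-91038084, without touching it. The gap between the Etv5 region and the nearer Etv4 region was 0.31 kb. Upstream, an Etv5 region 31.5 kb from the start, chr5:90995663-90996169, lay in an intron of Mthfd2l. All of its 36-base sequences (100%) occur more than once in the genome and 100% of its bases are annotated repeat, so reads of that length could not be placed there with certainty. The overlapping pair counted for Epgn is the one in intron 1 of Ereg, 55.7 kb from the Epgn start by the Etv5 midpoint and 47.8 kb from its end.

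Btc (ENSMUSG00000082361.6, chr5:91357261-91402994, minus strand), which encodes betacellulin, lies on the far side of Areg and had no region of either list within 50 kb. Its nearest Etv4 region was 73.6 kb and its nearest Etv5 region 74.1 kb beyond its 3′ end, and these overlapped each other. The same absence of both lists was seen for 40.4% of protein-coding genes. The pair beyond Btc and another pair 93.0 kb downstream of Areg both lie between Areg and Btc, outside the limit of either gene. In the Etv4 list, the region nearest to Btc, chr5:91282699-91283637, had number 599.

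**Figure D4:**
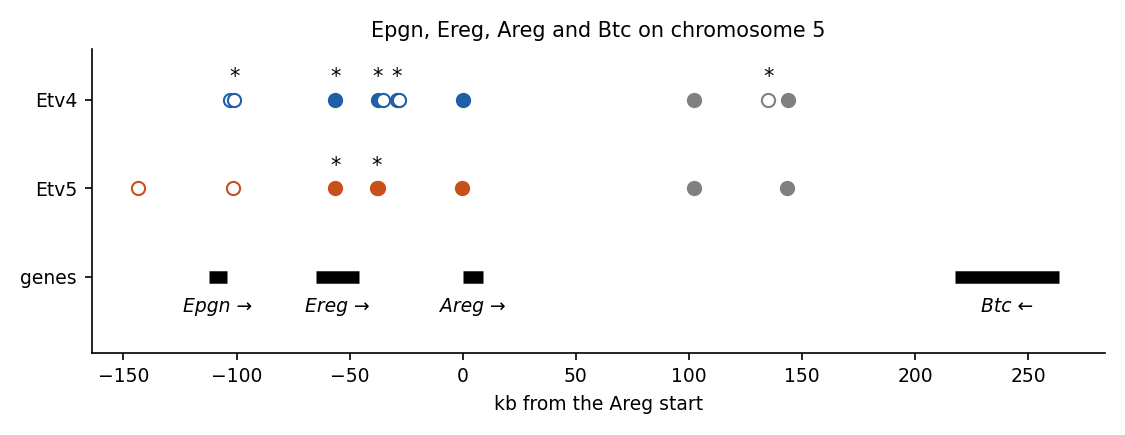
Etv4 and Etv5 regions around Epgn, Ereg, Areg and Btc, as kb from the Areg start (horizontal axis). Filled points overlap the other list, asterisks mark regions with at least 1 AP-1 site, grey points lie beyond 50 kb of every member, and arrows give the direction of transcription. Regions of both lists lie over the Areg start and in Ereg, and the stretch on either side of Btc is empty.

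Hbegf (ENSMUSG00000024486.6, chr18:36504927-36515805, minus strand) encodes heparin-binding EGF-like growth factor. An Etv4 region with number 4840, or 35.5% of the list, covered its start. It spanned chr18:36515207-36515821 and its GC content was 67.6%. No Etv5 region overlapped it, and the nearest was 21.6 kb away. A shorter Etv4 region, chr18:36513786-36514114, lay in intron 2 of 5 of the principal transcript, 1.86 kb downstream of the start, and held 2 AP-1 sites. An Etv4 region 9.41 kb upstream held another AP-1 site. Both of these were found with Etv4 only.

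The region of Hbegf with the lowest number was downstream of the gene. The Etv4 region chr18:36492386-36493236 had number 1537, or 11.3% of its list, and the Etv5 region chr18:36492557-36493155 lay wholly inside it with number 1979, or 23.9% of its list. Their midpoints were 45 bp apart, and the Etv4 midpoint was 23.0 kb downstream of the Hbegf start and its edge 11.7 kb beyond the 3′ end. The common 599 bp held no ETS, AP-1 or RUNX pattern. The nearest transcript start was that of Hbegf. An additional Etv5 region, chr18:36493232-36493652, overlapped the same Etv4 region by 5 bp only. The other pair, 44.5 kb upstream by the Etv4 midpoint, was within 0.3 kb of the start of Ankhd1, a gene of an ankyrin repeat protein, and both of its regions held the strict form of the ETS pattern.

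Tgfa (ENSMUSG00000029999.14, chr6:86195223-86275719, plus strand) encodes transforming growth factor alpha. No region of either list was inside its 80.5 kb, and the closest was 37.2 kb from the gene. Upstream, 37.7 kb from the start, the Etv4 region chr6:86157017-86158044 contained the whole Etv5 region chr6:86157360-86158020. The Etv5 region had number 897, or 10.8% of its list, and the Etv4 region number 4000, or 29.3%. The 200 bases at the middle of the 661 bp in common, chr6:86157591-86157790 on the plus strand, held none of the patterns searched and are shown as the pair with the lower Etv4 number at this gene.

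Tgfa upstream: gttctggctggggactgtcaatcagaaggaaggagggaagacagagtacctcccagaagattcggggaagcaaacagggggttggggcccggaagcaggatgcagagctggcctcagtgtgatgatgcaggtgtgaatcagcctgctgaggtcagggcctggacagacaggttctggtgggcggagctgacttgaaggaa

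Downstream of Tgfa, 123.7 kb from its start and 43.1 kb from its end, the Etv5 region contained the Etv4 region. The Etv4 region chr6:86318802-86319104 was the shortest at the family genes, at 303 bp, and had number 13418, or 98.4% of its list. The Etv5 region chr6:86318564-86319352 was the longest of its list at these genes, at 789 bp, and had number 2661, or 32.1%. The common stretch held 4 sites, more than any other pair, and is shown for that reason, chosen after its values were seen. Its middle 300 bases are printed, chr6:86318804-86319103 on the plus strand. The capitals mark, in order, the RUNX pattern on the plus strand (TGTGGTT), the RUNX pattern on the minus strand (read as GACCACA), a cyclic AMP response element (TGACGTCA) and an AP-1 site (TGAGTCA).

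Tgfa downstream: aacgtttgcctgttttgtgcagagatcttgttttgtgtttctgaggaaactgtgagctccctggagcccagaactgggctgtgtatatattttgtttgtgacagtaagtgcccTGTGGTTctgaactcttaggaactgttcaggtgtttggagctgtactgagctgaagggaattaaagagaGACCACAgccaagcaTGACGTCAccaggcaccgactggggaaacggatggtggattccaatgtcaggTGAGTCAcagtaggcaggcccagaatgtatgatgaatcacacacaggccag

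The 4 sites fall between chr6:86318917 and chr6:86319059, and no ETS pattern was found in either region. The 2 remaining Etv4 regions downstream of Tgfa, 129.5 and 130.8 kb from its start, had no Etv5 region, and the farther of them held 2 AP-1 sites. That region was the last inside the limit, 49.98 kb from the gene.

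Nrg1 (ENSMUSG00000062991.7, chr8:31814551-32884029, minus strand) encodes neuregulin 1, a ligand of Erbb3 and Erbb4, and is by far the longest member, at 1069 kb. All of its 3 Etv4 and 2 Etv5 regions were intronic. Relative to its length, with 50 kb added on either side, it had 0.257 Etv4 and 0.171 Etv5 regions per 100 kb, below the genome-wide densities of 0.500 and 0.304. Ereg had 6.72 and 4.20 per 100 kb of the same kind. The pair at Nrg1 consisted of chr8:32199869-32200466 for Etv4 and chr8:32200016-32200397 for Etv5, the latter wholly inside the former, 190.7 kb from the nearest annotated start of a Nrg1 transcript. Their numbers were 6832, or 50.1%, and 2591, or 31.2%. The middle of the pair, chr8:32200107-32200306 on the plus strand, held none of the patterns, and the single GGAAGT in common lay outside it, at chr8:32200058-32200063.

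Nrg1 intron: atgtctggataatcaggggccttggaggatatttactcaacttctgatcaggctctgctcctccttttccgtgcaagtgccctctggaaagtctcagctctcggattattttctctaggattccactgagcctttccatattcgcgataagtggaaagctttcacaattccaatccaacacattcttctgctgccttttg

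Egfr (ENSMUSG00000020122.16, chr11:16752203-16918158, plus strand) encodes the EGF receptor itself. Inside the gene only Etv4 regions were found. They were 3 regions in intron 1 of 27, with midpoints 39.2, 52.1 and 78.5 kb downstream of the start, and 2 of them held an AP-1 site. The one farthest from the start, chr11:16830515-16830975, held an AP-1 site and had its midpoint 0.042 kb from the start of Egfros, an antisense transcript. Their numbers were close together, at 61.1%, 67.7% and 61.4% of the Etv4 list. The nearest Etv5 region was 19.9 kb upstream of the gene.

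That Etv5 region, chr11:16731710-16732313, had number 514, or 6.20% of its list, the lowest Etv5 number at any member. It covered an Etv4 region, chr11:16731722-16732303, of which it shared all 582 bp and which had number 9338, or 68.5%. This pair lay entirely in annotated repeat sequence. Of its 36-base sequences, 97.9% in the Etv5 region and 97.8% in the Etv4 region occur more than once in the genome, so reads placed there may stem from other copies, and their part in the low number was not tested.

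The other pair counted for Egfr was 32.9 kb beyond its 3′ end. The Etv5 region, chr11:16951039-16951655 with number 1272 or 15.3% of the list, began at the same base as the Etv4 region, chr11:16951039-16951803 with number 6042 or 44.3%. Both were at the start of Fbxo48, a gene of an F-box protein, and within 2 kb of the start of Eldr. Of the 617 bp in common, 525 are exonic and are not shown. The remaining 92 bases, chr11:16951283-16951374 on the plus strand, held no pattern. The exonic part held RUNX sites at chr11:16951482-16951488 and chr11:16951524-16951530, inside both regions.

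Egfr downstream: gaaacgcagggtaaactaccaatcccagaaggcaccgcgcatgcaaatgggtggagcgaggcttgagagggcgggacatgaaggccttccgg

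Erbb2 (ENSMUSG00000062312.5, chr11:98412470-98437716, plus strand) encodes the receptor without a known ligand of its own. It was found mainly in the Etv5 list. An Etv5 region, chr11:98412091-98412401, ended 0.069 kb upstream of the gene start, with number 8009, or 96.5% of the list. A longer one, chr11:98418916-98419608, lay in intron 1 of 26, 6.79 kb downstream of the start, with number 1519, or 18.3%. The nearest Etv4 region to the former was 26.0 kb away and to the latter 18.8 kb. Because it was the Etv5 region without an Etv4 region nearest to a member's start, chosen after its values were seen, 300 bases of the former are shown, chr11:98412097-98412396 on the plus strand, with GGAAGT in capitals at 2 positions.

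Erbb2 start: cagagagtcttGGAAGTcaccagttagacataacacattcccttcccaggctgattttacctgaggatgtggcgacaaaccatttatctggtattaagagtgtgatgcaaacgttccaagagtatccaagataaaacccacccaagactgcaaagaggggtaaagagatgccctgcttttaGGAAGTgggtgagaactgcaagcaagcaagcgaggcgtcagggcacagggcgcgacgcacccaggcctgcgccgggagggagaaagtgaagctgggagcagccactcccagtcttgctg

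In contrast to the Areg start, this region held no cyclic AMP response element, and neither held the full ETS pattern. The nearest Etv4 region to Erbb2, chr11:98438367-98439276, began 0.651 kb beyond its 3′ end at the start of Mien1. It contained an Etv5 region, chr11:98438655-98439205, and their numbers were 2509, or 18.4%, and 3399, or 41.0%. Of the 551 bp in common, 392 are exonic. The remaining 159 bases, chr11:98439047-98439205 on the plus strand, held no pattern. Of the other Etv5 regions, 1 was in an intron of Pgap3, 0.26 kb from a Pgap3 transcript start and 12.3 kb upstream of the Erbb2 start. Another lay 49.2 kb downstream of it and held the only AP-1 site of an Etv5 region at this gene.

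Erbb2 downstream: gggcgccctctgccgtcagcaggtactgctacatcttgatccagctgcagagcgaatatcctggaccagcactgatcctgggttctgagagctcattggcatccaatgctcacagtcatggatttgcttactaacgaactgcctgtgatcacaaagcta

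Erbb3 (ENSMUSG00000018166.8, chr10:128567523-128589652, minus strand) encodes a receptor with little kinase activity that signals in pairs with the other receptors. No region was inside the gene or at its start, and the closest was 18.1 kb away. All 4 regions counted for it were at the starts of other genes. An Etv4 region of 1122 bp, the longest at the family genes, was at the start of Zc3h10 with number 566, or 4.15% of the list. The overlapping pair was at the start of Rpl41, a gene of a ribosomal protein, and an Etv4 region was at the start of Rps26, another ribosomal protein gene. Both regions of the pair held the strict ETS pattern CCGGAAGT on the minus strand at chr10:128549217-128549224, 10 bp from the middle of the Etv5 region. The 251 bp that they share are exonic throughout and are not shown.

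**Figure D5:**
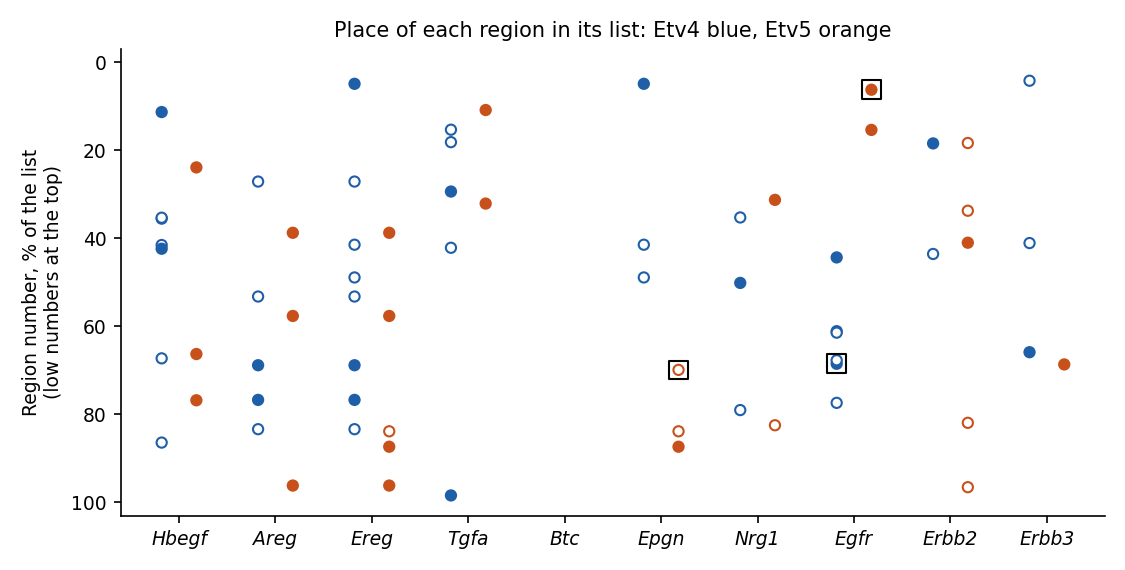
Region number as percent of the list (vertical axis, low numbers at the top) for every region at each gene, with Etv4 in blue and Etv5 in orange. Filled points overlap the other list and squares mark regions in which over 50% of the 36-base sequences are multicopy. Values spread from 4.15% to 98.4% for Etv4 and from 6.20% to 96.5% for Etv5.

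The regions were spread over the whole of both lists. Of the 34 Etv4 regions, 6 were in the first 25% of the list and 6 in the last 25%. Of the 21 Etv5 regions, 5 were in the first 25% and 7 in the last 25%. The regions of a pair could stand far apart in their lists. In Ereg the Etv4 region was at 4.86% and the Etv5 region at 87.3%, and in the downstream pair of Tgfa it was 98.4% and 32.1%.

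The patterns of 3 groups of transcription factors were searched on both strands within 500 bp around the midpoint of each region. They were an ETS pattern (CAGGAAGT or CCGGAAGT, of which CCGGAAGT is the strict form and which contain GGAAGT), an AP-1 pattern (TGACTCA, which reads TGAGTCA on the other strand) and a RUNX pattern (TGTGGTT or TGTGGTC). The ETS pattern was found in 4 of the 34 Etv4 regions (11.8%, 3.30–27.5%) and 2 of the 21 Etv5 regions (9.52%, 1.17–30.4%), against 10.2% and 7.94% of the lists. AP-1 was found in 13 Etv4 regions (38.2%, 22.2–56.4%) and 4 Etv5 regions (19.0%, 5.45–41.9%), against 37.4% and 35.8%. RUNX was found in 8 Etv4 regions (23.5%, 10.7–41.2%) and 7 Etv5 regions (33.3%, 14.6–57.0%), against 24.8% and 23.9%. Each of these 6 intervals contained the share of its list, so no difference was detectable with this number of regions.

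Of the 6 regions with the ETS pattern, 5 were within 2 kb of the start of a gene outside the family (2 at Ankhd1, 2 at Rpl41 and 1 at Rps26) and 0 at the start of a member. Those at Ankhd1 and at Rpl41 are overlapping pairs and thus not separate places. In the whole lists, 48.3% of the Etv4 and 43.2% of the Etv5 regions with this pattern were within 2 kb of a start. Of the 17 regions with AP-1, 14 were farther than 2 kb from any transcript start, and 3 were within it. By list, 3 of 13 Etv4 and 0 of 4 Etv5 regions with AP-1 were within it, against 19.2% and 19.3% in the lists. Overlapping pairs in Ereg intron 1, between Ereg and Areg and downstream of Tgfa hold the same AP-1 sites and are not separate places. By locus, AP-1 was in 4 of the 8 Etv4 regions of Epgn, Ereg and Areg, in 3 of the 6 at Egfr, in 2 of the 7 at Hbegf, in 2 of the 5 at Tgfa, in 1 of the 3 at Nrg1 and in 1 of the 2 at Erbb2. Among the Etv5 regions it was in 2 of 6 at Epgn, Ereg and Areg, in 1 of 2 at Tgfa, in 1 of 5 at Erbb2, and in none at Hbegf, Nrg1 or Egfr. No region of either list at Erbb3 held it. RUNX was in 3 of 5 Etv4 and 2 of 2 Etv5 regions at Tgfa, and in 2 of 6 and 2 of 2 at Egfr. It was in 2 of 8 and 2 of 6 at Epgn, Ereg and Areg, in 1 of 2 and 1 of 5 at Erbb2, and in none at Hbegf, Nrg1 or Erbb3.

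The 50 kb limit decided some of the values. Just inside it were the farthest Etv4 region of Tgfa, 49.98 kb from the gene, and the pair of Ereg intron 1 as counted for Epgn, at 47.6 and 47.8 kb. Just outside were the same pair as seen from Areg, at 55.9 and 56.2 kb, and an Etv4 region 58.2 kb from Nrg1. Within 10 kb of the genes, Etv4 regions were found at 7 and Etv5 regions at 5 of the 10 members, against 33.2% and 23.0% of protein-coding genes.

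The other genes of the pathway were taken from a list of 23. An Etv4 region was found at 15 of them, against 53.4% of protein-coding genes, and an Etv5 region at 16, against 42.7%. Overlapping regions were found at 11, against 29.5%. Of the 6 genes that act in the shedding of ligands, 5 had an Etv4 and 5 an Etv5 region and 3 had an overlap, and groups this small are to be read beside the same 53.4%, 42.7% and 29.5% of all protein-coding genes. Adam12, a metalloprotease, had 10 Etv4 and 7 Etv5 regions, with an overlapping pair 29.4 kb upstream whose Etv4 number was 352. Adam17, the main sheddase of several EGF receptor ligands, had an overlapping pair with the Etv4 midpoint 0.119 kb upstream of its start. Of the 8 adaptors and effectors, 4 had an overlap, such as Grb2, which links the receptors to Ras activation, with a pair 0.381 kb upstream, and Gab1, 0.449 kb downstream. Of the 4 inhibitors, 3 had an overlap. Errfi1, a feedback inhibitor of the receptor kinase, had 5 Etv4 and 4 Etv5 regions, and Lrig1, which promotes receptor degradation, had 7 and 1. Of the 5 further ligand and receptor genes, only Nrg3 had an overlap, 725.3 kb downstream of its start within its 1104 kb. Egf, Nrg2, Erbb4 and Plcg1 had no region of either list.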

How the data were processed

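ChIP-seq was performed in EpRas cells with 1 library per antibody, amplified by 15 cycles of PCR and sequenced on an Ion Proton. Per the labels, reads were mapped to mm10 with Bowtie. The authors called regions per library in the one-sample mode of CisGenome (window of 300 bp, p threshold of 0.1), without a control library, so that copy number, mappability and open chromatin are not corrected for. Each deposited file is a BED list of 6 columns. The deposited score is 1000 for every region and was not used. The name column is a region number without a stated criterion. End minus start was 299 bp at the least, for a window of 300 bp, which leaves lengths uncertain by 1 bp. Positions are printed counting from 1.

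Gene bounds, transcripts and features were taken from GENCODE M21 and sequence from the RefSeq copy of GRCm38, the assembly that mm10 names. Samples were grouped by the antibody in the labels. Every region inside a member or within 50 kb was described, with distances from the midpoint to the gene start, overlap of at least 1 bp, and exact (Clopper-Pearson) 95% binomial intervals. Neighbouring regions are not independent, as these intervals assume. A region near several members was counted under each of them but a single time in totals. Multicopy shares were counted from 36-base sequences, a length taken from the trimmed reads of the study's accessibility libraries.

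The members and the pathway list were chosen with earlier results of these data known. For each member, sequence was taken from the overlapping pair with the lowest Etv4 number, up to 200 bases. Exons were left out, which left none at Erbb3. By a separate rule no sequence was taken from chromosome 18, which holds Hbegf. The 2 sequences named in the text as chosen later, GGAAGT and the cyclic AMP response element were added after seeing the data. The alternatives were distances of 10 and 100 kb, the first 50% of each list by number, the longer 50%, merging within 300 bp, lists without mostly multicopy regions, equal numbers, stricter overlap, windows of 200 bp or the whole region, the strict ETS pattern, and distances of 1 and 5 kb to starts. Overlap and pattern search were tested on simulated data, where 700 of 700 planted overlaps and 400 of 400 planted sites were recovered. Python 3.11.15 was used with pandas 2.3.3, numpy 2.4.6, numba 0.67.0, scipy 1.17.1 and matplotlib 3.10.9.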

Additional observations from a re-analysis of the deposited data

How the results depend on the processing

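The 8 counts kept within 1.5 times their value in 31 of 45 alternative settings. The number of members with a region was 9 for both lists, except for 10 and 10 with 100 kb, 7 and 5 with 10 kb, 9 and 7 with the first 50% of the lists by number, and 9 and 6 with the longer 50%. With a distance of 10 kb in place of 50 kb, the Etv4 regions fell to 15, the Etv5 regions to 10 and the overlapping Etv4 regions to 5. The first 50% by region number left 19 Etv4, 10 Etv5 and 4 overlapping regions, and the longer 50% left 20, 10 and 5. With as many Etv4 as Etv5 regions, 21 Etv4 regions were left, of which 7 overlapped. These settings use fewer regions or less sequence by construction. Overlap of 50% of both regions left 8 of the 12 overlapping Etv4 regions. Those lost were all the overlapping ones counted for Areg, Ereg and Epgn, and the downstream one of Tgfa. In 200 bp around the midpoint, the ETS pattern was in 3 in place of 6 regions and AP-1 in 9 in place of 17. Merging within 300 bp gave 32 Etv4 and 19 Etv5 regions, and leaving out mostly multicopy regions gave 33 and 19. No paired analysis was possible because there is only 1 library for either antibody and no test was made. Without read counts or a control library, a missing region could not be told apart from too few reads, and this holds for Btc and for the gene starts found in 1 list only.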
